A study of Mus musculus with 10 samples.

Results

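The muscle array was compared directly with the liver array of adult female C57BL/6 mice, on each of 2 Affymetrix one-colour chips called A and B. Total RNA was extracted with Trizol, and biotin-labelled cRNA was made from 10 µg of it. Each tissue was hybridised once per chip, so 4 of the 10 arrays of a 5-tissue series were compared, and the labels name neither the muscle that was taken nor whether animals were pooled. A probe set entered the comparison if it was no control and if its intensity in muscle or in liver exceeded the noise bound of that array, the size of the array's 1st percentile. This held for 3791 of 13057 probe sets (29.0%). Chip A contributed 2465 of 6523 and chip B 1326 of 6534, and together they named 2431 of 6137 genes. Values below are scaled intensities, given for muscle and liver on the chip that holds the probe set. With 1 array per tissue and chip there was no spread between samples, so no difference has a test, and how precise the values are is set by these few arrays. In whole tissue, fewer cells of a type and less RNA per cell cannot be told apart.

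Skeletal muscle and liver handle the same fuels in opposite ways. Muscle takes up glucose under insulin, stores it as glycogen and burns it through glycolysis and the citric acid cycle for its own contraction, and it lacks glucose-6-phosphatase and so cannot release free glucose. Liver makes glucose from lactate, glycerol and amino acids, releases it to the blood, disposes of nitrogen as urea, and secretes most plasma proteins. Many of the steps that both tissues share are carried out by isoenzymes, products of separate genes with a muscle form and a liver form.

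The noise bound was 1065 in muscle and 295 in liver on chip A, and 1639.5 in muscle and 792 in liver on chip B. A call was made where the higher tissue was at least 4-fold above the lower, with a value under the bound replaced by the bound, and a fold set against a bound is given as "at least". Since the bound of muscle was the higher on both chips, a call towards liver needed a higher intensity, and no fold towards liver exceeded 18.9. Of the 3791 probe sets, 423 (11.2%) were called higher in muscle and 272 (7.17%) higher in liver. Over the 2431 genes above a bound the calls were 263 (10.8%) for muscle and 156 (6.42%) for liver. Several counts per list below are over all genes with a probe set, where the base is 263 and 156 of 6137. Under the scalings and the higher bound named below, the calls over genes were between 91 and 134 for muscle and between 156 and 261 for liver. Of the remaining categories, 1382 probe sets were above the bound in both tissues, 433 in muscle alone and 1976 in liver alone, and for 1295 of the last the bound of muscle left the direction unsettled. A probe set above the bound in 1 tissue alone could differ only towards that tissue. The share of muscle among the calls, 60.9%, fell to 39.0% under 75th percentile scaling, 41.8% under quantile normalization, 29.6% with centred ratios and 40.1% with the higher of the 2 bounds used for both tissues; the split of the calls between the tissues thus moved with the scaling and the bound.

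The probe sets above the bound in both tissues had a median log2 ratio of muscle over liver of 0.77 (chip A 0.89, chip B 0.62), and 674 of the 1382 lay within 2-fold. A log2 ratio between 0 and 0.77 therefore lies on the liver side of this median. The median itself depends on the bounds. Muscle had the higher bound, and 1976 probe sets above the bound in liver alone did not enter it, against 433 in muscle alone. With the higher of the 2 bounds used for both tissues it was 0.14. Centred ratios set this median to 0 on each chip and carry the same limit. The probe sets next to the bound on chip A were Plaur (1068 in muscle) and Casp9 (296 in liver) just inside, and Crebbp and Casd1 (295 in liver each) just outside. On chip B they were Pex2 (793 in liver) inside and Hikeshi (1638 in muscle) outside. Of 76 probe sets present on both chips, 61 of them controls, 14 had a settled direction on both, and all 14 had the same direction. For 13 of these that were above the bounds on all 4 arrays, the log2 ratios of the chips differed by a median of 0.34 and at most by 0.96. Most of the 14 were controls, either hybridisation spikes or probe sets of Gapdh, Actb and Pcx. Their agreement therefore says little on other genes.

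**Figure D1:**
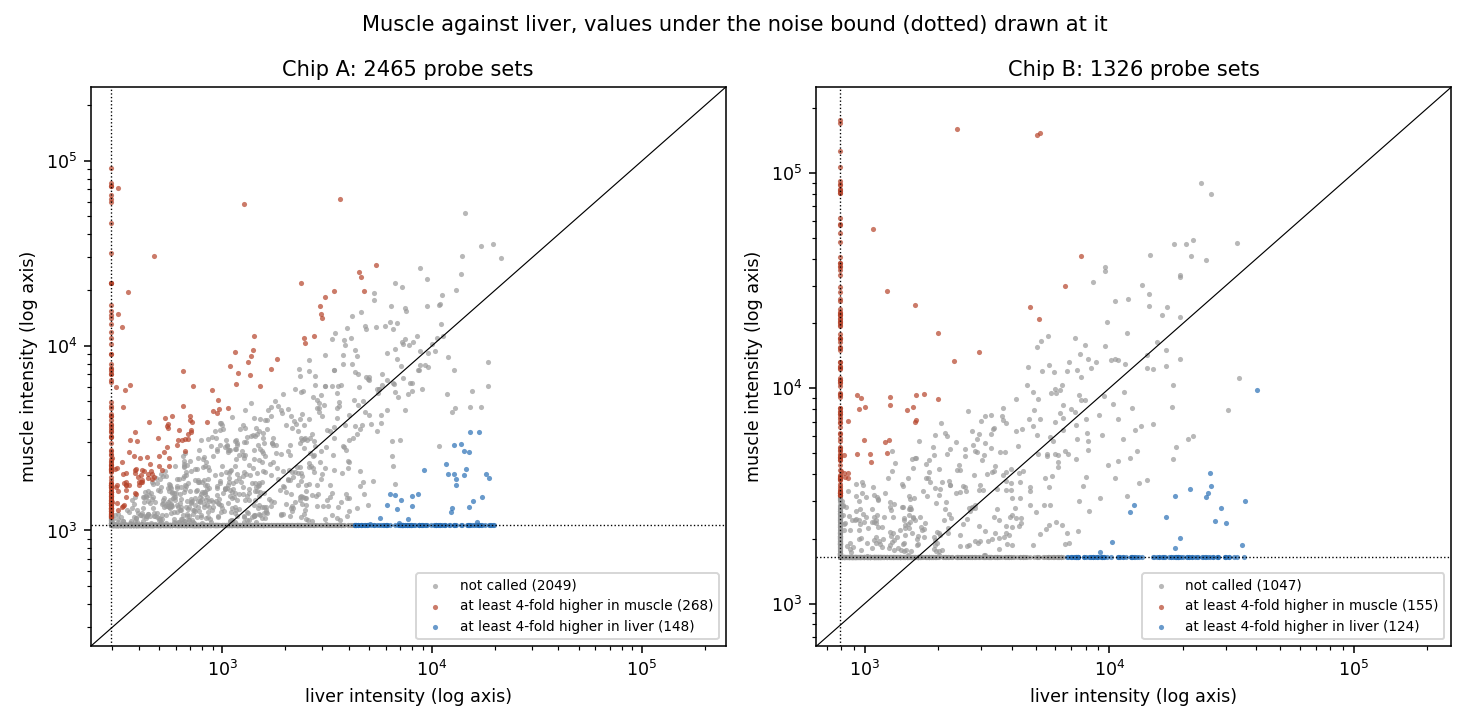
Each point is a probe set, with its liver intensity on the x axis and its muscle intensity on the y axis (both log axes), for chip A on the left and chip B on the right. Values under a bound are drawn at the dotted line. Called probe sets, 268 for muscle and 148 for liver on chip A and 155 and 124 on chip B, are coloured, and many of both kinds lie on the line of the other tissue's bound.

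The defining markers were first set against the labels. Muscle read 73140.2 for Acta1, the skeletal actin, against 52.9 in liver, and 159172 for Ckm, the muscle creatine kinase, against 2395. Pygm, Eno3, Tnnt3 and Mb were called for muscle as well, which makes 6 of 6 muscle markers. Of 6 liver markers, Fbp1, Arg1 and Serpina1a were called for liver. Ttr, the thyroid hormone carrier, read 4144 in liver and 513 in muscle, at least 3.89-fold higher in liver. Alb, serum albumin, read 18122 in liver and 8226 in muscle, a ratio of 2.20-fold. Its probe set is of relaxed design, which lets it pick up related transcripts, and read higher still in pancreas, at 26265.5. Apoa1, the main protein of high-density lipoprotein, read 33.9 in liver and 241 in muscle, and neither value passed its bound.

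The genes of glycogen storage and breakdown that could be read were mostly higher in muscle. They hold muscle forms, and the liver forms of phosphorylase (Pygl), synthase (Gys2) and phosphorylase kinase (Phka2, Phkg2) are not analysed here. Of 22 listed genes 11 had a probe set, 9 were above a bound, 8 were called for muscle and 0 for liver, with a median log2 ratio of 2.72 beside 0.00 over all genes. In the medians over genes, here and below, a gene with no settled direction counts as 0, which held for 871 of all 2431 genes. Among genes above the bound in both tissues, the medians were 2.30 for the glycogen group and 0.86 over all genes. Pygm, the muscle glycogen phosphorylase that splits glucose units from glycogen, read 72742 in muscle and 124 in liver, at least 246-fold higher in muscle. Its activating kinase was read by the muscle forms of its subunits: Phka1, the alpha subunit, read 5315 and 421 (at least 6.71-fold), and Phkg1, the catalytic gamma subunit, read 1952 and -23.9 (at least 6.61-fold). On the side of synthesis, Gyg, the glycogenin that primes a new particle, read 6326 and 92.8 (at least 21.4-fold), and Gys1, the muscle glycogen synthase, read 7980.1 and 947 (8.42-fold, by a probe set of relaxed design). Pgm1, the phosphoglucomutase that links glycogen to glycolysis, read 23558 and 4565 (5.16-fold), Ppp1r3c, which brings protein phosphatase to glycogen, 1486 and 65.9 (at least 5.03-fold), and Gaa, the lysosomal alpha-glucosidase, 4549.9 and 969.8 (4.69-fold). The branching enzyme Gbe1 alone among the 9 read higher in liver, 2995 against 2024 in muscle (1.48-fold). With centred ratios 4 genes of the group were called for muscle and with the higher bound for both tissues 5, while Pygm, Gyg and Gys1 were called under every alternative that kept their probe sets.

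The promoters of 2 genes of this group are printed to show the sequence in front of genes high in muscle. They are the 250 bases before the RefSeq start site in GRCm38.p6, 5′ to 3′ on the gene's strand, with the letters CAGCTG in capitals, the core of an E box that MyoD family factors of muscle bind. Pygm lies on the plus strand at chr19:6384158-6384407 and holds CAGCTG with its first base 168 and 8 bases before the start. Phka1 lies on the minus strand at chrX:102644247-102644496 and holds it 38 bases before.
Pygm: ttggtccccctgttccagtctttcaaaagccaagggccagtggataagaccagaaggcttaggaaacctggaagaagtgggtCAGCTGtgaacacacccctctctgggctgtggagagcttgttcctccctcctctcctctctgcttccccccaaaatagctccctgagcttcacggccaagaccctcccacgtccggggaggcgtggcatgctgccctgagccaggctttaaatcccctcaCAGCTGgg
Phka1: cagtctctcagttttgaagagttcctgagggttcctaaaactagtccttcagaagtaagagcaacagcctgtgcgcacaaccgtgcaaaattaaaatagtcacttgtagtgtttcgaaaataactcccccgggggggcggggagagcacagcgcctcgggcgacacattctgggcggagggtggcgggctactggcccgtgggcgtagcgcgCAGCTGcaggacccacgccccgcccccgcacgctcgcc
CAGCTG, a palindrome, was found in 18.0% of the 222 windows of genes with a probe set called for muscle, 9.16% of the 131 of genes called for liver, 14.3% of the 1989 of all genes compared, and 14.7% of all 27025 windows. A MEF2 form was in 4.95%, 0.763%, 2.82% and 3.70% of the same sets. A match is a description, not a binding site or a cause.

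Most glycolytic enzymes with a settled direction were higher in muscle, 9 against 1 for liver. The list holds the muscle forms of several steps, while the liver pyruvate kinase Pklr is not analysed here. Of 25 listed genes 17 had a probe set, 12 were above a bound, 6 were called for muscle and 0 for liver, with a median of 2.61. Eno3, the muscle enolase, read 87536 in muscle and -45.9 in liver (at least 111-fold). Pkm, the pyruvate kinase of muscle, read 54968 and 1076 (51.1-fold), and Aldoa, the muscle aldolase, 152585 and 5201 (29.3-fold). Aldoa had 2 more probe sets, at 45.8-fold and 29.5-fold. Hk2, the hexokinase of insulin-sensitive tissue, read 7813 and 168 (at least 9.87-fold), and Pfkfb3, which makes the activator fructose 2,6-bisphosphate, read 7955 and 261 (at least 26.9-fold). Gapdh read 89568 and 23722 (3.78-fold), and 6 values of its control probe sets, which stood outside the comparison, were from 4.59-fold to 7.14-fold higher in muscle. Tpi1, triose phosphate isomerase, read 35072 and 9562 (3.67-fold). The subunits of lactate dehydrogenase differed unequally, with Ldhb, the heart type, at 9399 and 41.9 (at least 11.9-fold) and Ldha, the muscle type, at 30218 and 13617 (2.22-fold, and 3.82-fold by its other probe set). Hk1, the hexokinase found in most tissues, read 2582 in muscle and 4009 in liver, 1.55-fold higher in liver, and 1.26-fold on chip A. Pfkm, the muscle phosphofructokinase, read 687 and 35.9 and passed neither bound. The probe sets of Aldoa, Pkm, Gapdh, Tpi1, Ldha, Ldhb and Hk1 are of relaxed design, which lets them pick up related transcripts, and without such probe sets 3 enzymes remained called of 5 above a bound.

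**Figure D2:**
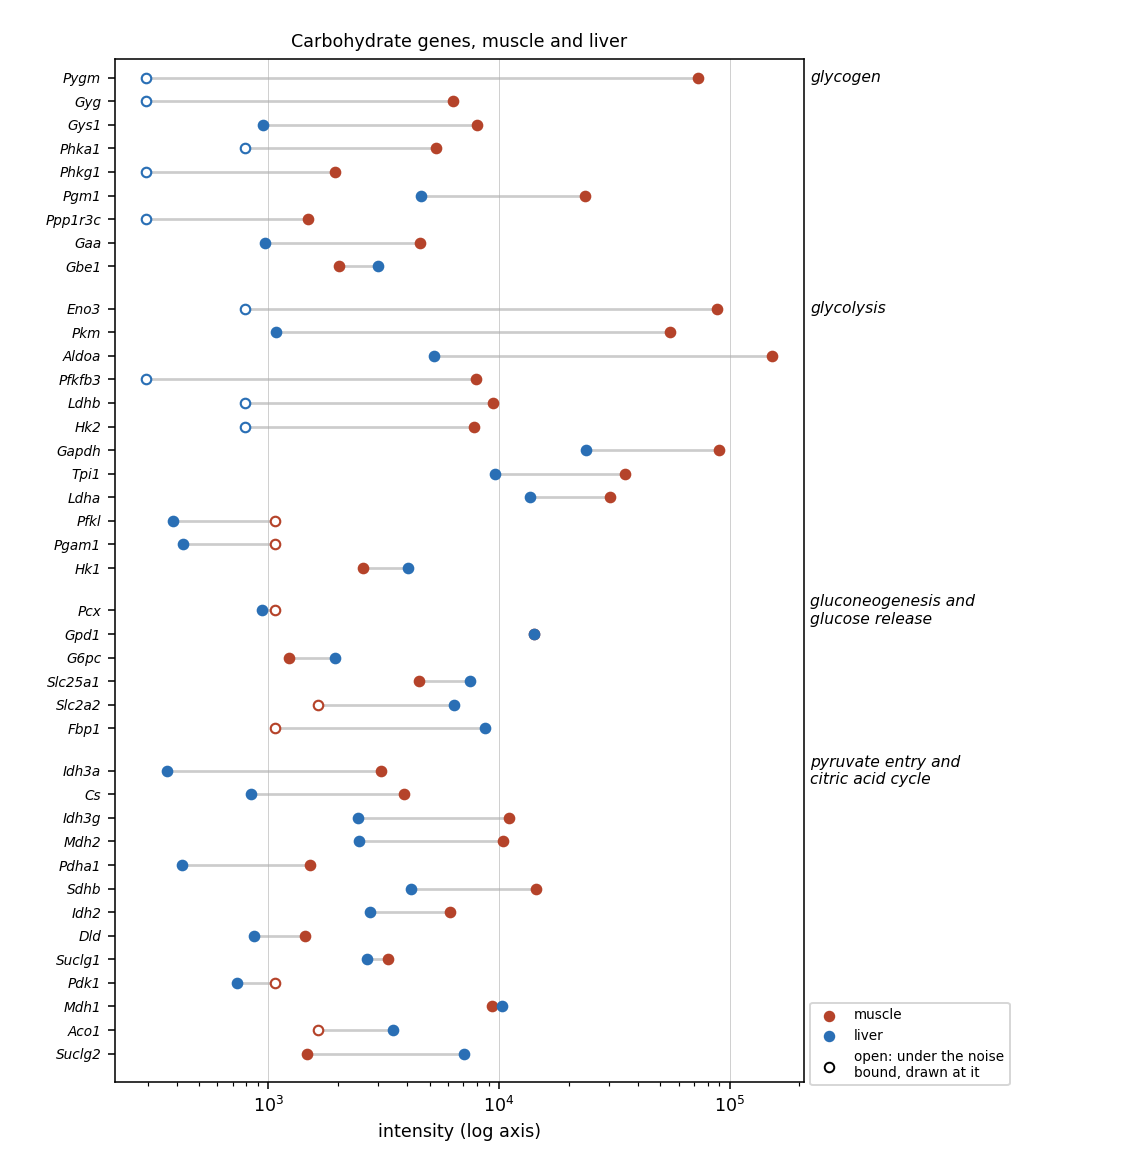
Intensities (log axis) of muscle and liver are joined for each gene of glycogen, glycolysis, glucose release and the citric acid cycle. Open circles are values under the noise bound, drawn at it. Bounds and levels differ between the chips, so only the length of a line within a gene can be read. Muscle lies to the right for all but Gbe1 in the glycogen group, and liver to the right for Fbp1 and Slc2a2.

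Of genes of glucose production and release, Fbp1 and Slc2a2 were higher in liver, 3 lay within 2-fold and Pcx was not settled. Of 21 listed genes 8 had a probe set, and Pck1, the cytosolic PEP carboxykinase, is not analysed here. Of the 8 genes 6 were above a bound, 1 was called for liver and 0 for muscle, and the median was -0.70. Fbp1, the fructose bisphosphatase of liver, read 8669 in liver and -161 in muscle, at least 8.14-fold higher in liver. Its muscle form Fbp2 read 1028 in muscle, under the bound of 1065, and 143 in liver. Slc2a2, the transporter through which liver exports glucose, read 6376 in liver and 459.8 in muscle, at least 3.89-fold higher in liver, which missed the call, and it passed with 75th percentile scaling, centred ratios or quantile normalization. G6pc, the catalytic subunit of glucose-6-phosphatase, read 1941 in liver and 1229.7 in muscle (1.58-fold), where the muscle value stood just above the bound. Slc25a1, the citrate carrier of mitochondria, read 7452 in liver and 4475 in muscle (1.67-fold). Gpd1, the cytosolic glycerol phosphate dehydrogenase, read 14212 in liver and 14199 in muscle. Pcx, pyruvate carboxylase, read 935 in liver and 60.1 in muscle, and its direction was not settled by this probe set. Its 3′ control probe set, outside the comparison, read 2938.4 in liver and 360 in muscle on chip A (at least 2.76-fold higher in liver), and 6164 and 625 on chip B (at least 3.76-fold). The other control probe sets of Pcx settled no direction on either chip.

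Genes of hormone response were mixed. Of 12 genes of insulin and glucagon signalling on the arrays 8 were above a bound, with 2 called for muscle and 1 for liver. With 75th percentile scaling, centred ratios or quantile normalization these counts were 1 and 2, and with the higher bound for both tissues 0 and 1. Slc2a4, the insulin-regulated glucose transporter, read 4905 in muscle and -201 in liver, at least 6.19-fold higher in muscle, and its other probe set was at least 2.94-fold higher. It was not called with the higher bound or without probe sets of relaxed design. Ptpn1, a phosphatase that acts on the insulin receptor, read 1255 and 186 (at least 4.25-fold), and was not called under any of those 4 alternatives. Igf1, the growth factor that liver secretes, read 8604 in liver and 466 in muscle (at least 5.25-fold), and its binding protein Igfbp2 3338 and -583 (at least 3.13-fold). Igfbp1, another binding protein of the same family, went the other way with 1833 in muscle and 894 in liver (2.05-fold), but of its 2 other probe sets 1 had no settled direction and 1 passed neither bound. Prkag1, a gamma subunit of the AMP-activated kinase, read 5495 in muscle and 1957 in liver (2.81-fold). In the pentose phosphate and NADPH group of 8, Idh1, the cytosolic isocitrate dehydrogenase, was the 1 call, with 7735 in liver and 419 in muscle (at least 7.26-fold), and 0 were called for muscle. Of 3 genes of fructose, galactose and polyol metabolism 1 was above a bound, Galt, without a settled direction by the probe set that read it here. Another Galt probe set, on chip B, read 1998 in liver and 538 in muscle (at least 1.22-fold higher in liver).

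Genes of the citric acid cycle were mostly higher in muscle, with 4 of 16 on the arrays called for muscle and 1 for liver, and a median of 1.16 over the 13 above a bound. Idh3a, the catalytic subunit of the NAD-linked isocitrate dehydrogenase, read 3087 in muscle and 363 in liver (8.50-fold), Cs, citrate synthase, 3885 and 843 (4.61-fold), and Idh3g, a regulatory subunit, 11057 and 2456 (4.50-fold). Suclg2, the GTP-forming subunit of succinyl-CoA ligase, was the exception, with 7072 in liver and 1469 in muscle (4.81-fold). Its partner Suclg1, shared by both forms of the ligase, read 3310.2 in muscle and 2684 in liver (1.23-fold). Aco1, the cytosolic aconitase, read 3469.8 in liver and 1067 in muscle (at least 2.12-fold). The median was 0.27 with centred ratios, and 1 gene was called for muscle there and with 75th percentile scaling, and 2 with the higher bound.

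The respiratory chain showed a narrow distribution with a few genes far from it. Of 44 genes of the chain, ATP synthase and carriers 42 were above a bound, 7 were called for muscle and 3 for liver, and the median was 1.02, or 0.14 with centred ratios. Calls for muscle were 4 with 75th percentile scaling and 3 with centred ratios, and without probe sets of relaxed design 3 were called for muscle and 1 for liver. The genes far from the rest were tissue isoforms of the same subunits. Cox6a2, the muscle form of subunit 6a of cytochrome oxidase, read 21755 in muscle and -217 in liver (at least 73.7-fold), while Cox6a1, the form of other tissues, read 7589 in liver and 729.6 in muscle (at least 7.12-fold higher in liver). For subunit 8, Cox8b read 14643 in muscle and -35.9 in liver (at least 49.6-fold) and Cox8a 9152 in liver and 2132 in muscle (4.29-fold). For the ADP/ATP carrier, Slc25a4 read 16586 in muscle and 64.9 in liver (at least 56.2-fold) and Slc25a5 7647 in liver and 1153 in muscle (6.63-fold). Cox6a2 and Slc25a4 were read on chip B too, at least 32.7-fold and at least 28.5-fold higher in muscle, and Slc25a5 at least 7.74-fold higher in liver. All but Cox8a of these 6 were read by probe sets of relaxed design. The outer membrane channels Vdac3, at 5785 in muscle and 889.99 in liver (6.50-fold), and Vdac2, at 1768 and 349 (5.06-fold), came next. For subunit 7a the liver form Cox7a2 read 12138 in muscle and 7406 in liver (1.64-fold).

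**Figure D3:**
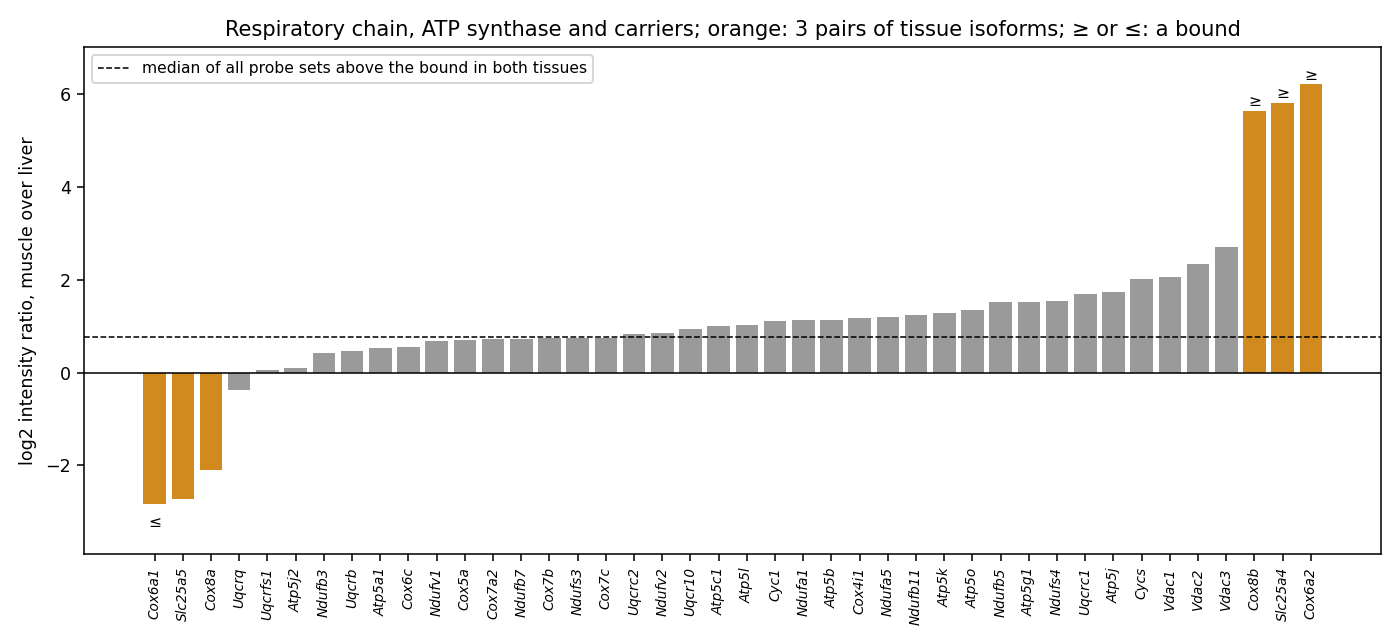
Bars give the log2 intensity ratio of muscle over liver of 42 genes of the respiratory chain, ATP synthase and carriers, ordered by value, with signs for bounds. The orange bars are 3 pairs of tissue isoforms, with 3 genes from 5.63 to 6.20 and their partners from -2.83 to -2.10. The other 36 lie between -0.38 and 2.70, around the dashed line at 0.77, the median of all probe sets above the bound in both tissues.

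Isoenzymes were then compared over 31 textbook pairs, of which 8 had both members above a bound. In 6 of the 8 the muscle form was higher in muscle and the liver form higher in liver: the glucose transporters Slc2a4 and Slc2a2, the fatty acid binding proteins Fabp3 and Fabp1, the 3 mitochondrial pairs, and the carbonic anhydrases Car3 and Car5a. The last pair was near equality, with Car3, the cytosolic form of muscle, at 10053 and 7785 (1.29-fold higher in muscle) and Car5a, the mitochondrial form of liver, at 2929 in liver and 2282 in muscle (1.28-fold), and Car3 turned to the liver side with 75th percentile scaling or centred ratios. In the pair of calcium pumps, both members were higher in muscle: Atp2a1 at 126228 and 151 (at least 159-fold) and Atp2a2, the form of slow muscle, heart and many other tissues, at 11834 and 217 (at least 40.1-fold). In the pair of adenylosuccinate synthases, which make a precursor of AMP, Adssl1 read 4684 in muscle and 335 in liver (14.0-fold), while Adss read 704 and 659, with no settled direction. A form above the bound in 1 tissue alone could differ only towards it, so the direction says little for such forms, and Car3 and Car5a were the 1 pair with both members above the bound in both tissues. Of the forms above the bound in both tissues, 8 of 8 muscle forms were higher in muscle and 3 of 5 liver forms higher in liver. All 927 genes above the bound in both tissues had a median log2 ratio of 0.86, so most of them were higher in muscle too. Car3, at 0.37, lay on the liver side of that median, which rests on the unequal bounds of the 2 tissues. Ucp3, an uncoupling protein of muscle, read 28.1 in muscle and 448.99 in liver without a settled direction. Without probe sets of relaxed design, 4 pairs had both members measured and 2 were opposite.

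Among genes of fatty acid uptake and mitochondrial oxidation 15 were higher in liver and 6 in muscle, and 3 were called on each side. Of 24 on the arrays 23 were above a bound, with a median of -0.73. Scaled on the 75th percentile, 3 were called for muscle and 6 for liver, and with centred ratios 2 and 9, with a median of -1.61. Fabp3, the heart and muscle carrier of fatty acids in the cytosol, read 21853 in muscle and -297 in liver (at least 74.0-fold), and Lpl, the lipase that frees fatty acids from lipoproteins at the vessel wall, read 19582 and 356 (55.0-fold). Crat, carnitine acetyltransferase, read 4706 and 653 (7.21-fold) and at least 5.97-fold on chip B. In liver, Fabp1, the liver carrier, read 17278 against 472 in muscle (at least 16.2-fold), Slc27a2, which activates very long chain fatty acids, 7194 against 839.8 (at least 6.75-fold), and Cpt1a, the liver gate to mitochondrial oxidation, 4786 against -150.3 (at least 4.49-fold). No enzyme of the spiral itself was called with the main scaling, but with centred ratios the 9 calls for liver included such enzymes, Acadm among them. Decr1, which prepares unsaturated fatty acids for the spiral, read 3537 in liver and 584 in muscle (at least 3.32-fold). Acadm, the medium chain dehydrogenase, read 8256 in liver and 2704 in muscle (3.05-fold), and Hadha, of the trifunctional protein, 6777 in muscle and 4860.1 in liver (1.39-fold). Peroxisomal genes were higher in liver: 5 of 9 were called for liver and 0 for muscle. Uox, the urate oxidase of peroxisomes, read 20721 in liver and 951 in muscle (at least 12.6-fold), Cat, catalase, 10897 and 841 (at least 10.2-fold), and Phyh, of phytanic acid oxidation, 8647 and 877 (at least 8.12-fold). Acat1, an acetyl-CoA acetyltransferase that also serves ketone bodies, read 4284 in liver and 813 in muscle (at least 4.02-fold) and was the 1 of 2 ketone genes above a bound.

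**Figure D4:**
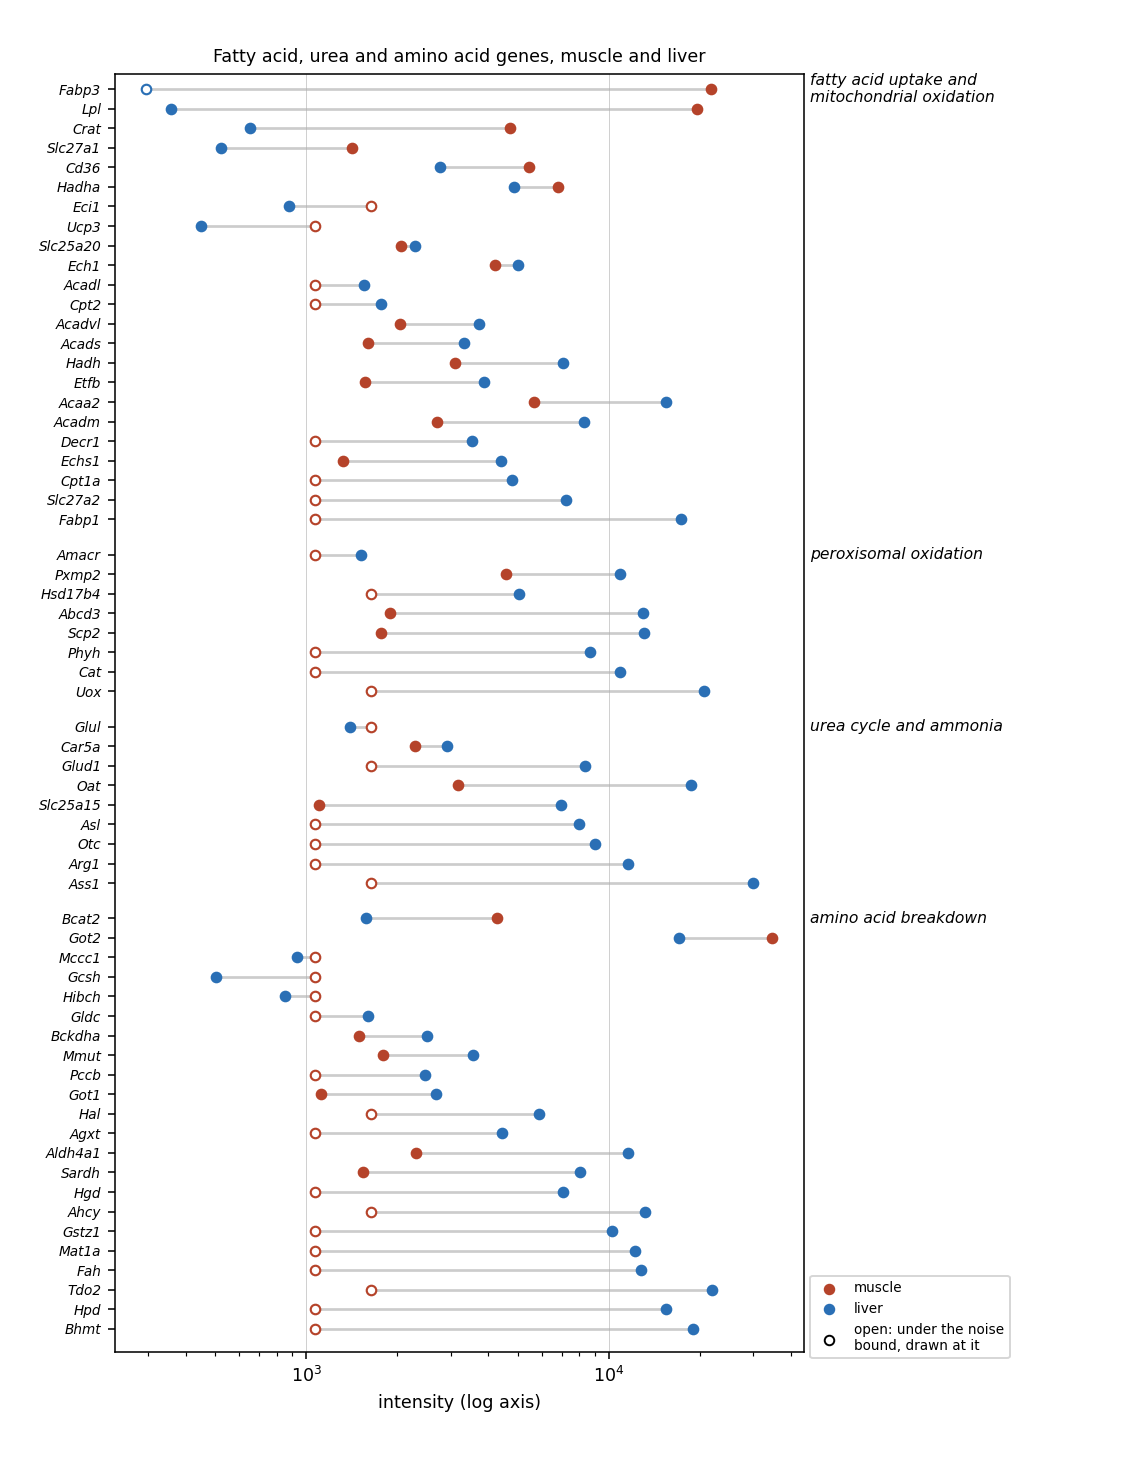
Intensities (log axis) of muscle and liver are joined for each gene of fatty acid, peroxisomal, urea and amino acid metabolism, with open circles for values under the noise bound. Chips differ in level, so the line within a gene is what can be read. Fabp3 and Lpl stand out to the right for muscle, and in the lower 3 groups liver lies to the right for most genes, with Got2 and Bcat2 turned the other way and the lines that end in an open circle on the right unsettled.

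Nitrogen metabolism was on the side of liver. Of 10 genes of the urea cycle and ammonia, 7 were called for liver and 0 for muscle, with a median of -2.67. Ass1, argininosuccinate synthase, read 29968 in liver and -1005 in muscle (at least 18.3-fold). Arg1, the arginase that forms urea, read 11579.9 and 262 (at least 10.9-fold), and Otc, ornithine transcarbamylase, 8998 and -319 (at least 8.45-fold). The ornithine carrier Slc25a15 and the aminotransferase Oat, both above the bound in both tissues, were 6.34-fold and 5.88-fold higher in liver. Of 24 genes of amino acid breakdown 11 were called for liver and 0 for muscle. Bhmt, which remethylates homocysteine, read 18966 in liver and 574 in muscle (at least 17.8-fold), Hpd, of tyrosine breakdown, 15498 and 152 (at least 14.5-fold), and Tdo2, of tryptophan breakdown, 21872 and 274 (at least 13.3-fold). Mat1a, the liver methionine adenosyltransferase, read 12168 and -133 (at least 11.4-fold). The tyrosine pathway was read at 3 further steps, Fah at 12808 in liver and 6.01 in muscle, Gstz1 at 10259 and 659 (at least 9.63-fold) and Hgd at 7056 and 36.1 (at least 6.62-fold). Higher in muscle were Bcat2, the mitochondrial transaminase of branched chain amino acids, at 4267 and 1579 (2.70-fold), and Got2, the mitochondrial aspartate aminotransferase, at 34727 and 17048 (2.04-fold). Sardh, sarcosine dehydrogenase, had probe sets that went both ways, 5.23-fold higher in liver for the 1 that read the gene here (8059 against 1541) and at least 8.03-fold higher in muscle for the other (2372 against 233). Creatine kinase Ckm was 66.5-fold higher in muscle, and by at least 223-fold on a second probe set, while Gamt, which makes creatine, read 6481 in liver and 2229 in muscle (2.91-fold).

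The promoters of Fabp1 and Hgd are printed as examples from the liver side, with matches to TTGCNNAA or its complement in capitals, a form that C/EBP factors bind. Both lie on the plus strand of GRCm38.p6, Fabp1 at chr6:71199629-71199878 with its match starting 174 bases before the RefSeq start and Hgd at chr16:37579903-37580152 with its match starting 49 bases before.
Fabp1: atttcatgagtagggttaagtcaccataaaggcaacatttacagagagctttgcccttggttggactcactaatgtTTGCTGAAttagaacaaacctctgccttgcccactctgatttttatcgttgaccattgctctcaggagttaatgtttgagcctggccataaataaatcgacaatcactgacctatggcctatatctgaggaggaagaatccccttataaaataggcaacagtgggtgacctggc
Hgd: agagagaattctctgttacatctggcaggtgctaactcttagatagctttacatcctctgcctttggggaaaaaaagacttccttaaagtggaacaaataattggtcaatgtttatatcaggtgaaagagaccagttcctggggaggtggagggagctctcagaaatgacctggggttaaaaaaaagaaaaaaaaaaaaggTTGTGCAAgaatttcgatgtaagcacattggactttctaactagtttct
On both strands, TTGCNNAA was found in 26.0% of the windows of genes called for liver, 12.2% of those called for muscle, 11.1% of all genes compared and 10.8% of all windows. TATAAA was in 26.7%, 8.11%, 10.1% and 14.3%, and the GC box GGGCGG in 32.1%, 60.4%, 61.3% and 35.4% of the same sets. CAAAGTCCA, an HNF4 form, was in 2.29%, 0.450%, 0.704% and 0.451%, and an HNF1 form in 3 of all windows and 0 of the genes compared. TATAAA can lie inside the MEF2 form, so their shares overlap. Presence or absence of these letters in a window says nothing on whether a factor binds there.

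Lipid synthesis and export differed by group. Of 11 genes of fatty acid and triglyceride synthesis 1 was called for liver, Dgat2, which makes triglyceride, at 17138 in liver and 2536 in muscle (6.76-fold). Fasn, fatty acid synthase, read 6220.5 and 903 (at least 3.79-fold), and Scd1, the desaturase, 18359.6 and 6019 (3.05-fold), and 0 were called for muscle. Calls for liver were 3 with 75th percentile scaling or quantile normalization and 4 with centred ratios. Of 17 genes of cholesterol and bile acids 3 were called for liver, and 5 with centred ratios. The 3 were Slc10a1, the bile acid importer of hepatocytes, at 19085 in liver and -155 in muscle (at least 11.6-fold), Hmgcs1, of cholesterol synthesis, at 9092 and 227 (at least 8.53-fold), and Lcat, the plasma enzyme that esterifies cholesterol, at 7426 and 387 (at least 6.97-fold). Lss, lanosterol synthase, was the 1 gene of this group higher in muscle, at 1103 and 541 (2.04-fold). This probe set is of relaxed design, and its muscle value stood just above the bound of 1065. The other Lss probe set, at 279 in muscle and 735 in liver, had no settled direction. Of 10 apolipoproteins and related proteins 7 were called for liver, or 3 without probe sets of relaxed design, led by Apoc1 at 25332 and 1310.1 (at least 15.5-fold), Apoh at 23012 and 41.2 (at least 14.0-fold) and Pon1, the paraoxonase of lipoproteins, at 14924 and -164 (at least 14.0-fold).

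The 10 genes with the largest folds towards muscle were Actn3 (at least 310.3-fold), Tnnt3 (at least 258-fold), Acta1 (at least 248-fold), Pygm, Tnnc2 (224-fold), Myl1 (at least 211-fold), Tnni2 (at least 204-fold), Atp2a1, Mylpf (at least 156-fold) and Pvalb (at least 116-fold). All but Tnnc2 are bounds set by the noise of liver, which was higher on chip B, so their order has no meaning across chips. All but Pygm, Atp2a1 and Pvalb are parts of the contractile filaments or their anchors. Actn3, the alpha-actinin of fast fibres, read 91639 in muscle and -58.9 in liver, and Tnnt3, the fast troponin T, 76321 and -40.9. Of 19 contractile genes 17 were called for muscle and 0 for liver, and the median was 5.51. Genes of slow fibres and heart were high too: Tnnc1, the slow troponin C, read 21935 and -211 (at least 74.3-fold), and Myl3, a slow myosin light chain, 36990.4 and -865 (at least 46.7-fold). Of 9 genes of calcium cycling and oxygen storage 6 were called for muscle. Besides the calcium pumps these included Pvalb, the calcium buffer parvalbumin, at 91876 and 76.8, Mb, myoglobin, at 82465 and 413 (at least 104-fold), and Ryr1, the calcium release channel, at 22239.8 and -24.9 (at least 28.1-fold). Mybph and Myom1, proteins of the thick filament, had the lowest folds among the called contractile genes, at least 15.5-fold and at least 16.7-fold. Both are bounds, Mybph on chip A and Myom1 on chip B, so this order too has no meaning across chips.

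The 10 genes with the largest folds towards liver were Gsta3 (at least 18.9-fold), Plg (18.6), Pzp (18.3), Ass1, Ambp (18.1), Bhmt, Cyp2d26 (17.5), Cyp3a11 (17.0), Hp (17.0) and F2 (16.8), each as a bound set by the noise of muscle, so their order has no meaning across chips. Plasma proteins gave 24 of 39 genes called for liver and 0 for muscle. Plg, plasminogen, read 19790.4 in liver and 61.1 in muscle, Pzp, a proteinase inhibitor, 19522 and 275, and Ambp, the precursor of bikunin, 29680.3 and 423. Of the genes above the bound in both tissues, Serpina1a, an antitrypsin, read 28662 and 2787 (10.3-fold), and Rbp4, the retinol carrier, 18567 and 1917 (9.68-fold). Drug and steroid metabolism gave 24 of 48 called for liver and 2 for muscle. Gsta3, a glutathione transferase, read 30946 in liver and 325 in muscle, Cyp2d26 18663 and -313, and Cyp3a11, which oxidises many drugs, 27946 and 457. The 2 genes of this group called for muscle were Gstm5, a glutathione transferase, at 3408 and 386 (8.83-fold), and Rdh5, a retinol dehydrogenase, at 2129 and 415 (5.13-fold). With the higher bound for both tissues neither was called, and 1 of them was with 75th percentile scaling, centred ratios or quantile normalization. Of 14 genes of iron and heme 5 were called for liver, or 2 without probe sets of relaxed design, led by Mt1, a metallothionein, at 22474 and -1977 (at least 13.7-fold), Hamp, the iron hormone hepcidin, at 20882 and -77.3 (at least 12.7-fold) and Cp, ceruloplasmin, at 15072 and 403 (at least 9.19-fold). Of the ferritin chains, Ftl1 read 25983 in liver and 3522 in muscle (7.38-fold). Fth1 read 24340.0 in muscle and 13692 in liver (1.78-fold). Its other probe set went the other way, with 8700 in liver and 7340 in muscle (1.19-fold).

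Regulators were measured less well. Of 15 liver transcription factors 9 were above a bound, with 0 called in either direction. Dbp, a clock-controlled factor, was the highest towards liver, at 3141 and 1457 (2.16-fold), and Rxra, a partner of nuclear receptors, read 2620.2 in muscle and 332 in liver (at least 3.31-fold). Hnf4a and Foxa1 passed neither bound. Of 14 muscle transcription factors 4 were above a bound and 3 were called for muscle. Mef2c read 3984 and -94.8 (at least 13.5-fold), Mef2d 1839 and 347 (5.30-fold), and Esrra, a receptor that controls mitochondrial genes, 1274 and 261 (at least 4.31-fold), and with the higher bound for both tissues 0 were called, and 1, Mef2c, with 75th percentile scaling, centred ratios or quantile normalization. Myod1 read 839.8 in muscle, under the bound. Of 10 genes of the neuromuscular junction and excitation 1 was called, Atp1b1, a sodium pump subunit, at 8924 in muscle and 1992 in liver (4.48-fold), and 0 were with 75th percentile scaling or centred ratios. Ache, which splits acetylcholine, read 2008 and -332 (at least 2.54-fold). The 35 ribosomal protein genes served as a comparison, with 30 above a bound, 0 called in either direction and a median of 0.13, which was -0.54 with centred ratios, where 1 was called for liver. Rps26 was at least 3.89-fold higher in muscle and Rpl3 3.44-fold higher in liver. Of 24 genes of the endoplasmic reticulum and secretion 1 was called each way: P4hb, a disulfide isomerase, at 6976 in liver and 1274 in muscle (at least 4.25-fold), and Kdelr2, a retrieval receptor, at 3195 in muscle and 48.9 in liver (at least 10.8-fold). Calls for liver were 4 with 75th percentile scaling, centred ratios or quantile normalization, and Kdelr2 was not called with the higher bound.

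**Figure D5:**
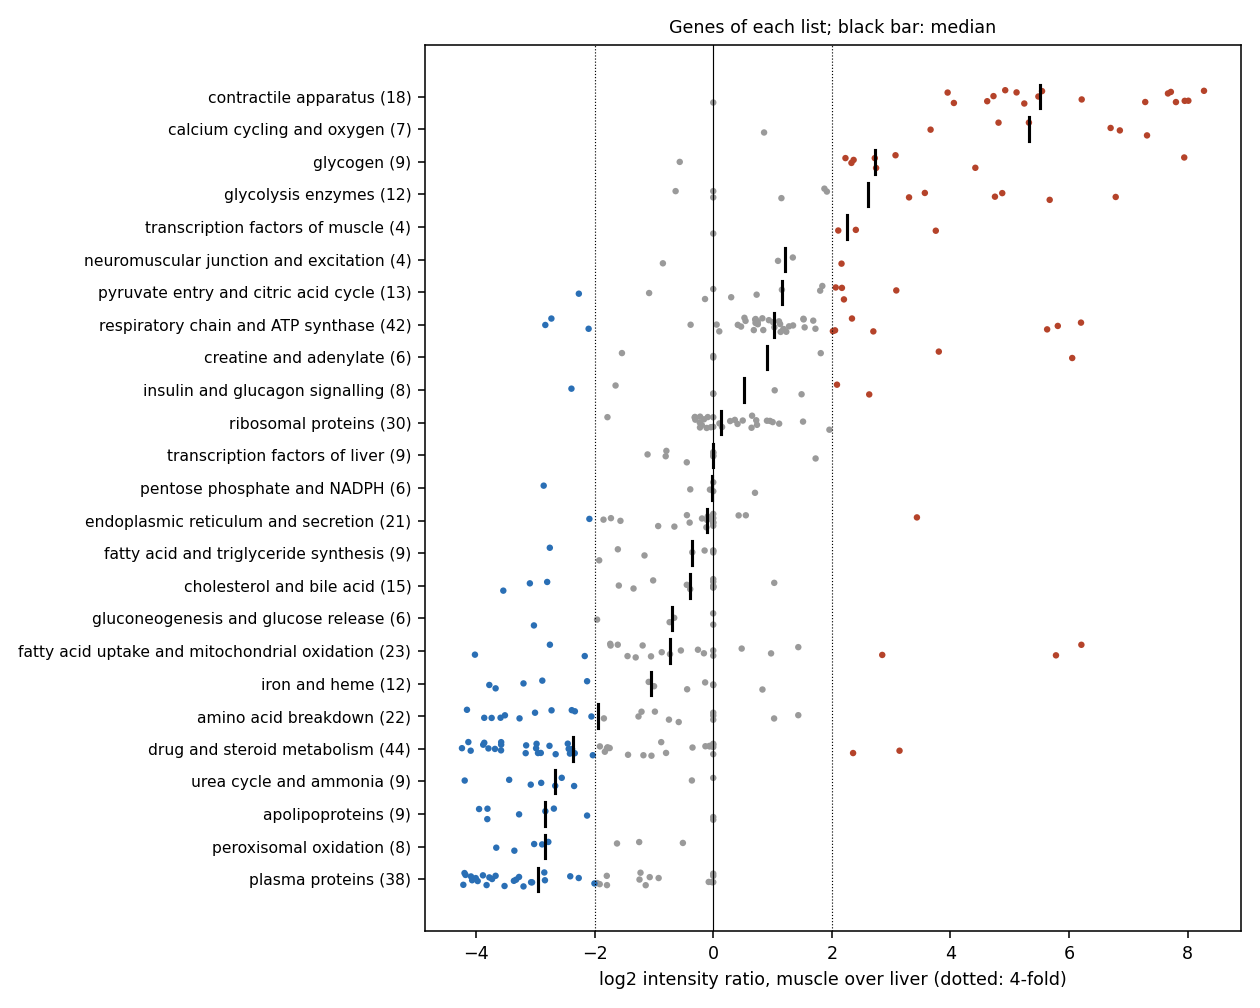
Each point is a gene above a noise bound, placed by its log2 intensity ratio of muscle over liver on the x axis within its list on the y axis, with the number of genes in parentheses. Black bars are medians and dotted lines mark 4-fold. Medians run from 5.51 for the contractile apparatus to -2.95 for plasma proteins, and points at 0 include genes with no settled direction.

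Some markers of other cells were called for muscle as well. Of 6 fibroblast markers 5 were above a bound and all 5 were called for muscle, with a summed intensity over both chips of 40579 in muscle and 6373 in liver, and Lum was under the bound in both. Dcn, decorin, read 23958 and 4736 (5.06-fold) and Col1a1, a chain of type I collagen, 5183 and 144 (at least 6.55-fold). With 75th percentile scaling, centred ratios or the higher bound 1 of the 5 was called, and with quantile normalization 2. The values of Col1a1, Col1a2, Col3a1 and Sparc were highest of the 5 tissues in white adipose, as the source label names those arrays. Of 4 markers of brown adipocytes, Cox8b was called for muscle, while Ucp1 (-121 in muscle, 24.9 in liver) and Cidea (10.0 and 17.0) were near 0. Of 3 nerve and Schwann cell markers Pmp22 was called for muscle (1236 and 124, at least 4.18-fold), and Mbp and S100b were under the bounds. Of 6 lymphocyte markers Ighm was called for muscle (1894 and 465, 4.07-fold), neither Pmp22 nor Ighm was called with 75th percentile scaling, centred ratios, quantile normalization or the higher bound, and Cd3e, Cd79a, Cd8a and Cd4 were under the bounds. Blood was in both tissues, with Hba-a1, a hemoglobin chain, at 23972 in muscle and 17288 in liver (1.39-fold). Of 9 macrophage markers 5 were above a bound and 0 were called, with sums of 5277 and 6836, and Clec4f, a marker of Kupffer cells, read 1337 in liver and -88.2 in muscle (at least 1.25-fold). White adipocyte markers summed to 3418 in muscle and 1019.6 in liver, with Adipoq at 988 in muscle, under the bound, and Lep at -92.2. Endothelial markers summed to 5434 and 6032, those of smooth muscle to 3669 and 685, those of acinar cells to 1403 and 1423, and those of bile duct to 970.1 and 229, and 0 genes of these lists were called. All sums given here include values under the bounds, with those below 0 taken as 0. Of the white adipocyte genes 1 was above a bound, in liver alone, and of the acinar and bile duct genes 0 were. The noise of muscle was the higher, so sums of values under the bounds do not rank the tissues. The part of other cells in the differences between muscle and liver was not tested.

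The other 3 tissues of the series were not used to choose the probe sets. Of the 423 called for muscle over liver, 335 (79.2%) had their highest value of the 5 tissues in muscle, 34 in pancreas, 32 in white adipose and 22 in hypothalamus. Of the 272 called for liver, 243 (89.3%) were highest in liver, 15 in pancreas, 11 in white adipose and 3 in hypothalamus. Over all 3791 compared, muscle was highest for 26.3% and liver for 22.9%. Among metabolic genes called for 1 of the 2 tissues, Ldhb and Gaa were highest in hypothalamus, at 10229 and 7952. Cox6a1, Cox8a and Dgat2 were highest in white adipose, at 12582, 13384 and 26386.0. A gene called here for muscle or liver is therefore not always most abundant there.

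Of 311 genes with several probe sets in the comparison, 47 were called for muscle and had another probe set, and for 23 of these all others were called too. For liver the numbers were 30 and 22. In each direction 1 gene had another probe set higher in the other tissue, and Sardh alone was called both ways. Of the called probe sets, 125 for muscle and 87 for liver had no gene or several genes in the annotation and are not named here.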

How the data were processed

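The authors deposited intensities on a linear scale, in whole numbers and partly below 0, 1 value per probe set and array; which software made them is not given in the sources used here. Per the labels, cRNA was prepared from 10 µg of total RNA as the maker's manual describes. Groups of muscle and liver were taken from titles and source labels, which agree; the white adipose arrays were grouped by their source label, since their title names a preconfluent state in its place.

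Starting from the deposited intensities, 61 controls per chip were left out, and each array was scaled so that its 2% trimmed mean matched the average trimmed mean of the 5 arrays on that chip (Python 3.11.15, numpy 2.4.6, pandas 2.3.3). The noise bound, the fold for a call (4) and the ratios against bounds are as described above. Probe sets were named by platform annotation, with symbols of GRCm38.p6: 5541 on chip A and 2001 on chip B had 1 gene, 197 and 27 several, and 785 and 4506 none. Where a gene had several probe sets, that ranking highest on its chip by mean log2 intensity represented it. Probe sets whose names carry the suffix f, g, i or r are said to be of relaxed design.

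The rule for named genes took every measured isoenzyme, the 10 largest folds each way, and up to 3 genes each way per list; other genes named were chosen after their values were seen. The members, gene lists and isoenzyme pairs were chosen with earlier results of these data known. The calling code was tested on simulated data. No test was made across samples, so p-values are absent, and the alternatives tried were other scalings, bounds, filters, folds and probe set choices.

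In the 3′ and 5′ control probe sets, the ratio of 3′ over 5′ signal for Gapdh was 1.16 and 1.19 in muscle and 1.18 and 1.35 in liver on chips A and B, and for Actb 1.41 and 1.34 in muscle and 2.84 and 2.61 in liver; the part of RNA length in the differences was not tested.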

Additional observations from a re-analysis of the deposited data

Results flagged for a closer look

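Control probe sets stood outside the comparison but carried signal above the noise bounds. The 3′ control of Pcx, pyruvate carboxylase, read 2938.4 in liver and 360 in muscle on chip A and 6164 and 625 on chip B, at least 2.76-fold and 3.76-fold higher in liver, while the gene's own probe set on chip A had no settled direction. The other control probe sets of Pcx had none on either chip. The 3′ control of Gapdh read 79089 in muscle and 13643 in liver on chip A (5.80-fold) and 110639 and 24097 on chip B (4.59-fold). The 3′ control of Actb, cytoplasmic actin, read 32641 and 2614 on chip A (12.5-fold) and 40188.8 and 4282 on chip B (9.39-fold). The Actb controls differed in size, with log2 ratios on chips A and B of 3.64 and 3.23 for the 3′ control. They were 4.65 and 4.20 for the 5′ control and 2.58 and 2.27 for the middle one.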

How the results depend on the processing

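Probe sets called for muscle numbered 423, and 239 with 75th percentile scaling, 182 with centred ratios, 243 with quantile normalization, 182 with the higher of the 2 bounds for both tissues, 988 with a bound at the 5th percentile, 1049 with a common floor, 163 with both tissues above the bound, 1009 at 2-fold and 159 at 8-fold. Those called for liver numbered 272, and 272 as well with the higher bound for both tissues. They numbered 374 with 75th percentile scaling, 432 with centred ratios and 338 with quantile normalization. Calls for liver were 418 with the bound at the 5th percentile, 758 with the common floor and 53 with both above the bound. They were 170 without probe sets of relaxed design, 499 at 2-fold and 121 at 8-fold. The median log2 ratio of 0.77 was 0.27 with 75th percentile scaling and 0.27 with quantile normalization, 0.00 when centred, 0.14 with the higher bound and 0.93 without relaxed design. With 75th percentile scaling and the higher bound together, an alternative chosen after seeing the data, it reversed to -0.10 with 151 calls for muscle. Opposite isoenzyme pairs numbered 2 without relaxed design, where fewer were measured. The median of glycolysis was 1.99 when centred, and its calls for muscle numbered 3 without relaxed design. Gluconeogenesis had 2 calls for liver with 75th percentile scaling, centring or quantile normalization. Glycogen had 5 calls for muscle with 75th percentile scaling or the higher bound and 4 when centred, where its median was 1.84. Sardh reversed to 0.31 as the median over its probe sets. Of 173 called genes of the lists and largest folds, 134 could be read under all 6 alternatives, and 105 of these were called in each. The other 39 lacked a value in some, and 33 of them were called wherever they had one. Of 237 uncalled genes 34 gained a call in some. The causes were not tested. The noise of muscle limits what can be read towards liver. No paired analysis was possible because each tissue has 1 array per chip.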
